A study of Homo sapiens with 6 samples.

Results

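MicroRNA host transcripts are the long RNAs inside which microRNA hairpins lie. They were taken here as every measured gene whose symbol starts with MIR and ends with HG, together with LARP7, MCM7 and DLEU2, the genes around the hairpins of the miR-302, miR-106b and miR-15a clusters. The rule found 32 host transcripts, 29 by symbol and 3 by name, among 16199 measured genes. The study sequenced RNA from H1 cells, an established line of human embryonic stem cells, in 3 genotypes with 2 samples each. The first genotype was hemizygous for Dicer-S1344L, a cancer hotspot change in DICER1 made with CRISPR-Cas9. The second was homozygous for the same change, and the third was wild type. The labels name no treatment and spell out no other allele. They code hemizygous samples as pmfs and homozygous ones as pmpm without explaining the codes. They do not say whether each edited genotype came from 1 clone or whether the samples of a genotype were separate cultures. The p-values thus measure only how far these samples lie apart, a spread that may be technical.

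A microRNA is made in steps. RNA polymerase copies the host transcript, the nuclear enzyme DROSHA with its partner DGCR8 cuts a hairpin out of it, and DICER1 cuts the loop off the hairpin in the cytoplasm to leave the mature strands. The S1344L change lies in the RNase IIIa domain of DICER1. A host transcript is thus measured upstream of DICER1, and its level need not follow that of its mature microRNA. Mature microRNAs were not measured in these libraries. In human embryonic stem cells the miR-302 cluster is known as the most abundant group, while mature let-7 is kept low by the LIN28 proteins.

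The GENCODE release 29 annotation (GRCh38) held 31 of the 32 hosts, all but MIR30DHG. On their own strand 30 hosts carried at least 1 annotated hairpin, with 54 hairpins in all, of which 18 lay wholly or partly in an exon and 33 in an intron. The 3 hairpins of MIRLET7A1HG lie in its RefSeq span outside its annotated exons. RefSeq (GRCh38.p14) gave mature sequences for 29 hosts.

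The mature strands group by their seed, bases 2 to 8, which pairs with target messages and is set in capitals here. Seeds are shown because they tie hosts on different chromosomes together. The let-7 seed GAGGUAG was shared by hairpins of 5 hosts, MIR4458HG, MIR100HG, MIRLET7A1HG, MIRLET7BHG and MIRLET7IHG. After the seed, miR-4458 runs differently from the let-7 strands.
hsa-miR-4458: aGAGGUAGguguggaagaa
hsa-let-7a-5p: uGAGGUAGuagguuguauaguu
hsa-let-7f-5p: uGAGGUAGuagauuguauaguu
hsa-let-7d-5p: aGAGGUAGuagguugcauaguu
hsa-let-7b-5p: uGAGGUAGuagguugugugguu
hsa-let-7i-5p: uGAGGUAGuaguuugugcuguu

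The embryonic stem cell cluster in MIR302CHG has the seed AAGUGCU in 4 of its hairpins, and its last hairpin, miR-367, has AUUGCAC. The same seed occurs in miR-92a-3p of MIR17HG and in miR-25-3p of MCM7, so 3 separate clusters share it.
hsa-miR-302a-3p: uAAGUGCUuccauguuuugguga
hsa-miR-302b-3p: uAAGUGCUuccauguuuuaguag
hsa-miR-302c-3p: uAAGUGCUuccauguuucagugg
hsa-miR-302d-3p: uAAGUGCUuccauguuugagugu
hsa-miR-367-3p: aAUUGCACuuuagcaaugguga
hsa-miR-92a-3p: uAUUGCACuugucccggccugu
hsa-miR-25-3p: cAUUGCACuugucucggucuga

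MIR17HG and MCM7 share a further seed, AAAGUGC, which is AAGUGCU of miR-302 shifted by 1 base. DLEU2 holds 2 strands with the seed AGCAGCA.
hsa-miR-17-5p: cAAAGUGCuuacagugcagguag
hsa-miR-20a-5p: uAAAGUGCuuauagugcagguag
hsa-miR-93-5p: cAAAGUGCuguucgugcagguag
hsa-miR-106b-5p: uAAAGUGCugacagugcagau
hsa-miR-15a-5p: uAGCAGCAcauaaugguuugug
hsa-miR-16-5p: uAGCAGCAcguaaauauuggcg

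The substrate that DICER1 meets is the whole hairpin, shown for 1 member each of the miR-302, miR-17 and let-7 groups. The capitals mark the annotated mature strands of both arms, and the lower case between them is the loop that DICER1 removes. The loop stretch between the arms is 15 bases long in MIR302A, 14 in MIR17 and 29 in MIRLET7A1.
MIR302A (chr4:112648183-112648251, minus strand): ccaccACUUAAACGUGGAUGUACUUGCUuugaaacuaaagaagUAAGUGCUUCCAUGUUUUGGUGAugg
MIR17 (chr13:91350605-91350688, plus strand): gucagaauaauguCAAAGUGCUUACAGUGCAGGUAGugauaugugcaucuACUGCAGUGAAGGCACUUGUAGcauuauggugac
MIRLET7A1 (chr9:94175957-94176036, plus strand): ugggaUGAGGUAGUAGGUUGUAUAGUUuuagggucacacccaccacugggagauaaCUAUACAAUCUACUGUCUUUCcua

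Levels are given in CPM, counts scaled to library sizes that were made comparable, and differences as log2 fold changes with their standard error (SE). Libraries held 38164848 to 52924532 counts. All 10 pluripotency markers were measured. Their summed levels were 11347 to 11660 CPM in hemizygous, 11105 to 11853 CPM in homozygous and 10101 to 10112 CPM in wild-type cells. Against wild type 10 of them had a log2 fold change above 0 in hemizygous cells, and 9 above and 1 below in homozygous cells. The medians were 0.19 in both. POU5F1 was highest in homozygous cells at 0.42 and DNMT3B lowest at -0.03. In homozygous cells 1 marker was higher at an edgeR p under 0.05, beside 1.19% of all genes, and in hemizygous cells 0 were. Of the markers of other cell types, 3 of 6 neural ectoderm, 4 of 6 mesoderm, 0 of 6 endoderm, 1 of 6 trophoblast or amnion and 5 of 8 fibroblast genes were in the table. Their sums were 465 to 560, 407 to 420 and 449 to 493 CPM for neural ectoderm in hemizygous, homozygous and wild-type cells. NES made up most of that sum, and the other measured members, ZIC1 and FABP7, differed from it. ZIC1 had 41.0 and 58.9 CPM in hemizygous, 28.2 and 28.01 CPM in homozygous and 17.9 and 16.3 CPM in wild-type cells. FABP7 had 4.22 and 5.81, 5.62 and 8.15, and 2.99 and 2.99 CPM in the same order. Both had an edgeR p under 0.05 in each edited genotype against wild type. The log2 fold changes were 1.54 and 0.71 for ZIC1 and 0.75 and 1.20 for FABP7 in hemizygous and homozygous cells. Over all genes 0.870% had p under 0.05 in hemizygous cells, and 1.19% were higher at that level in homozygous cells. DESeq2 called 1 of the list's genes in hemizygous cells, beside 0.0432% of all genes. For mesoderm the sums were 338 to 397, 365 to 381 and 262 to 278 CPM in the same order. KDR, with log2 fold changes of 0.45 and 0.47, had an edgeR p under 0.05 in both edited genotypes. PDGFRA, at 0.95, had it in hemizygous cells, beside the same shares of all genes. No gene of these lists passed the edgeR adjusted threshold. For the fibroblast list they were 870 to 1043, 773 to 839 and 941 to 1102 CPM. PAX6, SOX1 and TBXT, which define neural ectoderm and early mesoderm, were not analysed here, and the part of such cells in the results was not tested. DICER1 itself had 118 and 96.4 CPM in hemizygous, 129 and 118 CPM in homozygous and 169 and 126 CPM in wild-type cells. A base change need not alter the transcript's level, and the labels do not spell out the state of the other allele in hemizygous cells, coded pmfs. These levels thus do not check the labels. DROSHA had 131 to 152 CPM in hemizygous, 130 to 158 CPM in homozygous and 126 to 134 CPM in wild-type cells. DGCR8 had 44.6 to 46.7, 47.1 to 49.99 and 45.9 to 47.5 CPM in the same order.

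The first question was whether host transcripts differ in either edited genotype from wild type. No host passed the threshold of edgeR's quasi-likelihood test at an adjusted p under 0.05 in any comparison, where 0.00% of all genes passed. Before adjustment, 1 host, MIR4458HG, had p under 0.05 in hemizygous against wild-type cells, where 0.870% of all genes did. In homozygous against wild-type cells 4 hosts had p under 0.05, where 2.69% of all genes did. MIRLET7BHG and LARP7 were higher there, beside 1.19% of all genes, and MIR4458HG and MIR205HG lower, beside 1.50%. In homozygous against hemizygous cells it was again only MIR4458HG, beside 0.765% of all genes. DESeq2 called 7, 10 and 10 genes in the 3 comparisons in this order, or 0.0432%, 0.0617% and 0.0617%, among them MIR4458HG in hemizygous against wild-type cells and no other host. The median log2 fold change of the 32 hosts was -0.01, -0.01 and 0.07, against 0.00 in size over all genes. Both edited genotypes were set against the same wild-type libraries, so these comparisons are not independent of each other.

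MIR4458HG, the lincRNA at chr5:8450743-8463095 on the plus strand, was the host furthest from wild type. Its hairpin MIR4458 lies in an exon at chr5:8460925-8460999. It had 0.156 and 0.380 CPM in hemizygous cells, 0.463 and 1.01 CPM in homozygous cells and 3.70 and 3.48 CPM in wild-type cells. These levels rest on 6 and 20 counts in hemizygous, 21 and 41 counts in homozygous and 192 and 136 counts in wild-type libraries. Every edited library lay below both wild-type libraries, and the hemizygous libraries lay below the homozygous ones. In bulk RNA, fewer cells with the transcript and less of it per cell cannot be told apart.

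In hemizygous cells MIR4458HG was at -3.68 ± 0.53 (SE) and in homozygous cells at -2.29 ± 0.48 on the log2 scale against wild type. The edgeR p was 0.000269 in hemizygous cells, rank 4 of all genes, and 0.00231 in homozygous cells, rank 9. The edgeR adjusted p was 1.00 in both. DESeq2 gave an adjusted p of 5.49e-06 in hemizygous and 0.0619 in homozygous cells. Homozygous minus hemizygous was 1.39 ± 0.54, with an edgeR p of 0.0382 and an adjusted p of 0.999. The transcript passed the low-count limit seen in the deposited table, over 0.5 CPM in at least 3 libraries, only through both wild-type libraries and homozygous sample 2. A gene listed through the group where it is high is selected towards a difference, so its presence and its difference are not separate facts.

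Neighbours were taken as the measured genes with the next start coordinate on either side, so a gene starting further off may lie nearer. Those of MIR4458HG were FASTKD3, 581706 bases off on the lower side, and SEMA5A, 571931 bases off on the higher side. FASTKD3, a mitochondrial RNA protein, had 8.97 and 8.82 CPM in hemizygous, 10.4 and 8.47 CPM in homozygous and 9.37 and 8.29 CPM in wild-type cells, groups that overlap. SEMA5A, a semaphorin with roles in axon guidance, had 33.9 and 20.0 CPM in hemizygous and 21.7 and 19.3 CPM in homozygous cells, against 31.0 and 30.1 CPM in wild-type cells. Its homozygous libraries lay below wild type, with a log2 fold change of -0.58 ± 0.25 and an edgeR adjusted p of 1.00.

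**Figure D1:**
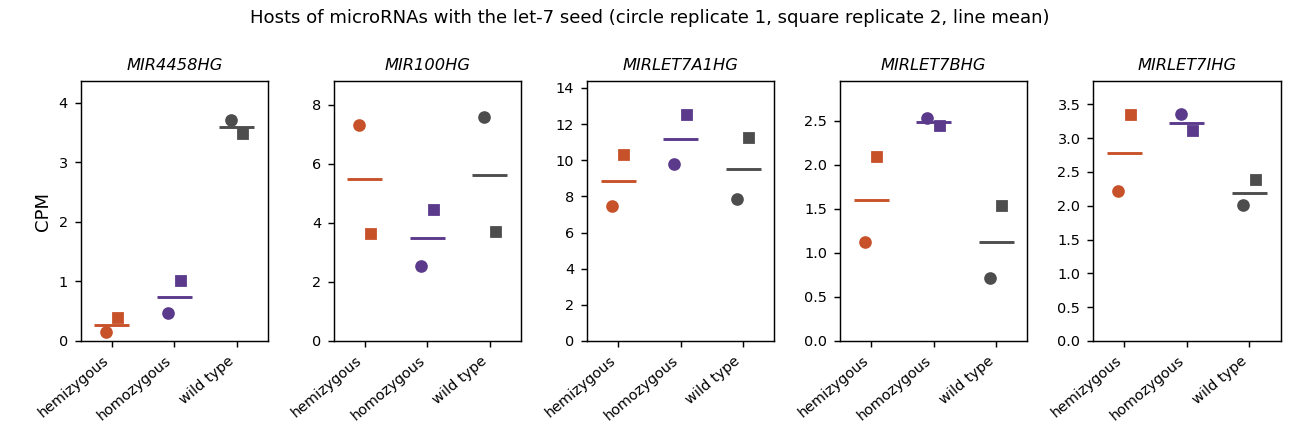
Levels in CPM (y axis, from 0) of the 5 hosts of microRNAs with the let-7 seed, in hemizygous, homozygous and wild-type cells. Circles are replicate 1, squares replicate 2 and lines group means; the wild-type points of MIR4458HG, at 3.70 and 3.48 CPM, stand above all edited points, the highest of which is 1.01 CPM.

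No other host of let-7 seed microRNAs lay wholly below wild type in either edited genotype. MIRLET7BHG, which carries let-7a-3 and let-7b in its exons on chromosome 22, had 1.12 and 2.09 CPM in hemizygous, 2.53 and 2.44 CPM in homozygous and 0.713 and 1.53 CPM in wild-type cells. Both homozygous libraries lay above both wild-type libraries, and the hemizygous ones overlapped wild type. The log2 fold change was 1.16 ± 0.46 in homozygous cells (edgeR adjusted p 1.00) and 0.54 ± 0.46 in hemizygous cells.

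MIRLET7IHG, the host of let-7i on chromosome 12, had 2.22 and 3.34 CPM in hemizygous, 3.35 and 3.10 CPM in homozygous and 2.01 and 2.38 CPM in wild-type cells. The homozygous libraries again lay above wild type, by 0.56 ± 0.29 on the log2 scale (edgeR adjusted p 1.00). MIRLET7A1HG, beside let-7a-1, let-7f-1 and let-7d on chromosome 9, had 7.46 and 10.3 CPM in hemizygous, 9.78 and 12.5 CPM in homozygous and 7.83 and 11.3 CPM in wild-type cells. Its groups overlapped, and replicate 1 was below replicate 2 in each genotype. MIR100HG, the host of miR-100, let-7a-2 and miR-125b-1 on chromosome 11, had 7.33 and 3.62 CPM in hemizygous, 2.53 and 4.43 CPM in homozygous and 7.58 and 3.68 CPM in wild-type cells. On the log2 scale its samples within a genotype lay further apart than the genotype means did. The regulators of let-7 maturation, LIN28A and LIN28B, differed from wild type by 0.22 ± 0.18 and 0.07 ± 0.25 on the log2 scale in hemizygous cells. In homozygous cells the values were 0.26 ± 0.18 for LIN28A and -0.22 ± 0.25 for LIN28B.

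Among the cluster hosts, MIR302CHG carries the embryonic stem cell cluster. It lies at chr4:112646476-112650051 on the minus strand, within LARP7, which is transcribed from the plus strand at chr4:112636964-112657592. The 5 hairpins miR-302a to d and miR-367 thus sit on the strand of MIR302CHG and opposite to LARP7. In MIR302CHG 4 of them lie in introns and MIR302B lies partly in an exon, while in LARP7 all 5 lie in introns. MIR302CHG had 569 and 499 CPM in hemizygous, 332 and 618 CPM in homozygous and 625 and 526 CPM in wild-type cells. The lowest and the second highest value were both from homozygous cells, and the groups overlapped. On the log2 scale the difference was -0.11 ± 0.28 in hemizygous and -0.28 ± 0.28 in homozygous cells, each with an edgeR adjusted p of 1.00.

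LARP7 encodes the protein that binds 7SK RNA and holds the transcription factor P-TEFb in reserve. It had 60.2 and 84.8 CPM in hemizygous, 77.6 and 86.2 CPM in homozygous and 56.4 and 62.3 CPM in wild-type cells. Both homozygous libraries lay above both wild-type libraries, by 0.46 ± 0.19 on the log2 scale (edgeR p 0.0449, adjusted p 1.00), and the hemizygous libraries overlapped wild type at 0.29 ± 0.19. The exons of MIR302CHG span 743 bases, of which 302, or 40.6%, lie on LARP7 exons of the other strand. The library kit does not mark strand, so reads from those bases cannot be told apart. Sample by sample the levels of these hosts did not run together: homozygous sample 1 had the lowest MIR302CHG level and a LARP7 level above both wild-type libraries.

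The neighbour of LARP7 on the lower side, ZGRF1, a helicase gene, had 126 and 140 CPM in hemizygous, 143 and 161 CPM in homozygous and 123 and 116 CPM in wild-type cells. All of its edited libraries lay above wild type. The log2 fold change was 0.35 ± 0.13 in homozygous cells, with an edgeR p of 0.0352 and an adjusted p of 1.00. ZGRF1 and LARP7 exons overlap by 32 bases on opposite strands.

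MIR17HG, at chr13:91347820-91354579 on the plus strand, carries 6 hairpins, from miR-17 to miR-92a-1, all in exons. The cluster is known as a target of MYC and as a promoter of growth. MIR17HG had 19.2 and 28.9 CPM in hemizygous, 21.9 and 37.1 CPM in homozygous and 16.5 and 23.5 CPM in wild-type cells. Within each replicate number both edited libraries were above the wild-type library, while across numbers the groups overlapped. Against wild type the log2 difference was 0.27 ± 0.32 in hemizygous and 0.56 ± 0.32 in homozygous cells, with an edgeR adjusted p of 1.00 in both. Its measured neighbours by start coordinate lie 1872033 bases away on the higher side and 3651548 on the lower side. On the lower side SLITRK5 had 18.5 and 37.0 CPM in hemizygous, 19.9 and 21.9 CPM in homozygous and 11.2 and 26.2 CPM in wild-type cells. On the higher side ENSG00000278177 had 0.834 and 0.607 CPM in hemizygous, 0.551 and 0.591 CPM in homozygous and 0.733 and 0.460 CPM in wild-type cells.

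MCM7, at chr7:100092728-100101940 on the minus strand, encodes a subunit of the replicative helicase and carries miR-106b, miR-93 and miR-25 in an intron. It had 353 and 356 CPM in hemizygous, 375 and 350 CPM in homozygous and 384 and 399 CPM in wild-type cells. All edited libraries lay below both wild-type libraries. The differences were small, -0.14 ± 0.12 in hemizygous and -0.11 ± 0.12 in homozygous cells on the log2 scale, and the edgeR adjusted p was 1.00 in both. Of its exon bases 8.9% overlap AP4M1 on the other strand. Its neighbour COPS6, a COP9 signalosome subunit 528 bases away, had 74.3 and 94.1 CPM in hemizygous, 96.1 and 93.2 CPM in homozygous and 83.5 and 90.3 CPM in wild-type cells. Its homozygous libraries lay above wild type, by 0.12 ± 0.15 on the log2 scale, which did not pass the edgeR threshold. The hairpin MIR25 is counted as a gene of its own in the table, with 1.62 and 1.86 CPM in hemizygous, 1.52 and 3.003 CPM in homozygous and 1.504 and 2.25 CPM in wild-type cells, and its groups overlapped. The kit's long-RNA reads over a hairpin are not a measure of the mature strand.

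DLEU2, at chr13:49982552-50125720 on the minus strand, is a long noncoding RNA of 13q14, a region often deleted in chronic lymphocytic leukaemia, and carries miR-15a and miR-16-1. It had 4.41 and 3.68 CPM in hemizygous, 3.64 and 3.94 CPM in homozygous and 4.86 and 3.505 CPM in wild-type cells. The wild-type libraries held both the highest and the lowest of the 6 values. On the log2 scale DLEU2 differed from wild type by -0.05 ± 0.26 in hemizygous and -0.15 ± 0.26 in homozygous cells. Its neighbours SPRYD7 and TRIM13 likewise overlapped between edited and wild-type cells. SPRYD7 had 9.28 and 9.28 CPM in hemizygous, 9.14 and 8.84 CPM in homozygous and 10.7 and 8.16 CPM in wild-type cells. TRIM13, whose exons share 346 bases with those of DLEU2 on the other strand, had 27.4 and 24.7, 24.2 and 24.9, and 28.4 and 24.2 CPM in the same order.

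**Figure D2:**
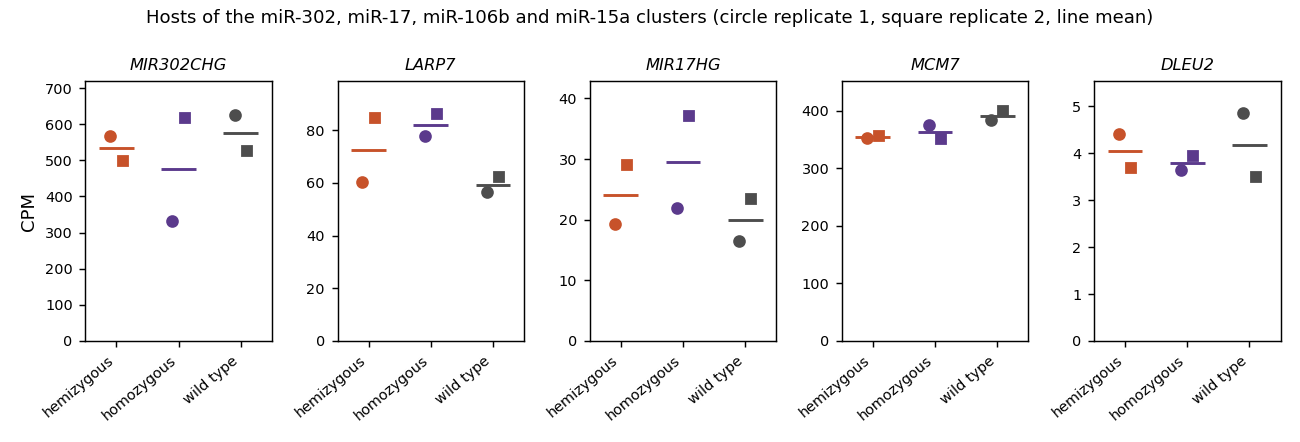
Levels in CPM (y axis, from 0) of the hosts MIR302CHG, LARP7, MIR17HG, MCM7 and DLEU2 in hemizygous, homozygous and wild-type cells. Circles are replicate 1, squares replicate 2 and lines group means; homozygous sample 1 is the lowest MIR302CHG point at 332 CPM, and all edited MCM7 points lie below the wild-type points at 384 and 399 CPM.

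Among the other hosts, MIR205HG, which carries the epithelial microRNA miR-205 on chromosome 1, had the third largest log2 fold change in homozygous against wild-type cells, after MIR4458HG and MIR4435-2HG. It had 15.1 and 10.5 CPM in hemizygous, 5.07 and 10.4 CPM in homozygous and 22.5 and 13.1 CPM in wild-type cells. The homozygous libraries lay below wild type and the hemizygous ones overlapped it. The log2 fold change was -1.21 ± 0.41 in homozygous cells (edgeR p 0.0231, adjusted p 1.00) and -0.48 ± 0.41 in hemizygous cells. Within replicate number 1 the homozygous difference was -2.14 and within number 2 it was -0.34.

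MIR3936HG on chromosome 5 had 1.67 and 1.56 CPM in hemizygous, 1.19 and 1.43 CPM in homozygous and 1.83 and 1.89 CPM in wild-type cells. All of its edited libraries lay below wild type, by 0.21 in size in hemizygous (-0.21 ± 0.27) and 0.51 in homozygous cells (-0.51 ± 0.27) on the log2 scale, neither past the threshold. MIR29B2CHG, the host of miR-29b-2 and miR-29c on chromosome 1, had 0.834 and 0.816 CPM in hemizygous, 0.397 and 0.542 CPM in homozygous and 0.598 and 0.460 CPM in wild-type cells. Its hemizygous libraries lay above wild type, at 0.63 ± 0.35. MIR924HG had 7.07 and 7.68 CPM in homozygous against 6.15 and 6.70 CPM in wild-type cells, a log2 difference of 0.20 ± 0.19.

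Counted over all hosts, the shares of groups that did not overlap were near those among all genes in each direction. In hemizygous against wild-type cells 2 hosts were wholly higher, MIR29B2CHG and MIR31HG, and 3 wholly lower, MIR3936HG, MIR4458HG and MCM7, where 8.13% and 9.21% of all genes were. In homozygous against wild-type cells 4 were higher, MIR924HG, MIRLET7BHG, MIRLET7IHG and LARP7, and 4 lower, MIR205HG, MIR3936HG, MIR4458HG and MCM7, where 14.2% and 13.6% of all genes were. In homozygous against hemizygous cells 4 hosts were higher and 4 lower, beside 11.0% and 10.4% of all genes.

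The host of miR-34a, a microRNA known as a target of p53, showed overlapping groups. MIR34AHG had 29.1 and 34.6 CPM in hemizygous, 29.4 and 42.0 CPM in homozygous and 30.3 and 31.6 CPM in wild-type cells. The hosts of microRNAs known from neural tissue also overlapped. MIR124-2HG had 6.96 and 12.2 CPM in hemizygous, 7.53 and 13.3 CPM in homozygous and 6.27 and 11.97 CPM in wild-type cells. MIR9-1HG had 2.503 and 6.34, 4.87 and 6.25, and 2.18 and 6.57 CPM in the same order of genotypes. In both, replicate 1 was below replicate 2 in every genotype. MIR9-3HG, which also carries miR-9, did not share this. Its log2 ratio of replicate 1 to 2 was 1.53 in hemizygous, -0.43 in homozygous and 1.09 in wild-type cells.

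Of the remaining hosts, MIR600HG, MIR1915HG and MIR30DHG were above 10 CPM on average and differed from wild type by at most 0.16 in size on the log2 scale in either edited genotype. MIR600HG had 47.1 and 54.0 CPM in hemizygous, 55.6 and 51.0 CPM in homozygous and 39.97 and 57.4 CPM in wild-type cells. MIR222HG, the host of miR-221 and miR-222 on the X chromosome, had 4.56 and 6.30, 3.24 and 7.04, and 6.90 and 5.83 CPM in hemizygous, homozygous and wild-type cells. MIR503HG, also on the X chromosome, had 3.15 and 3.61, 2.27 and 3.62, and 3.05 and 3.81 CPM in the same order. Both sets of groups overlapped.

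Of the 10 hosts left, MIR4435-2HG is described with the differences between samples, and the other 9 were low in level. MIR31HG, the host of miR-31, had 0.887 and 0.854 CPM in hemizygous, 0.661 and 0.591 CPM in homozygous and 0.810 and 0.512 CPM in wild-type cells, so that the hemizygous libraries lay just above wild type. MIR9-3HG had 1.62 and 0.531, 0.573 and 0.788, and 1.47 and 0.665 CPM in the same order of genotypes. MIR130AHG, the host of miR-130a, had 2.01 and 4.52, 3.15 and 3.91, and 1.95 and 4.48 CPM. In each of these last 2 hosts the hemizygous and the wild-type samples differed by replicate number in the same direction.

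MIR193BHG, the host of miR-193b and miR-365a, had 2.66 and 3.99 CPM in hemizygous, 2.82 and 4.14 CPM in homozygous and 2.41 and 4.32 CPM in wild-type cells. MIR4453HG had 4.43 and 5.58, 4.74 and 8.62, and 5.05 and 5.50 CPM in the same order. MIR762HG had 2.06 and 3.34, 1.87 and 2.68, and 2.31 and 2.76 CPM. All of these groups overlapped. Of the MIR762HG exon bases 27.5% lie on BCL7C exons of the other strand, and of the MIR4733HG exon bases 29.1% lie on NF1 exons.

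MIR4733HG had 1.30 and 1.56 CPM in hemizygous, 0.947 and 1.67 CPM in homozygous and 1.35 and 1.25 CPM in wild-type cells. MIR2052HG had 0.939 and 1.50, 1.26 and 1.35, and 1.54 and 1.30 CPM in the same order. MIR3659HG had 0.652 and 0.645, 0.485 and 0.837, and 0.463 and 0.793 CPM. These groups overlapped too, and their log2 fold changes lay between -0.22 and 0.14 in both edited genotypes.

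**Figure D3:**
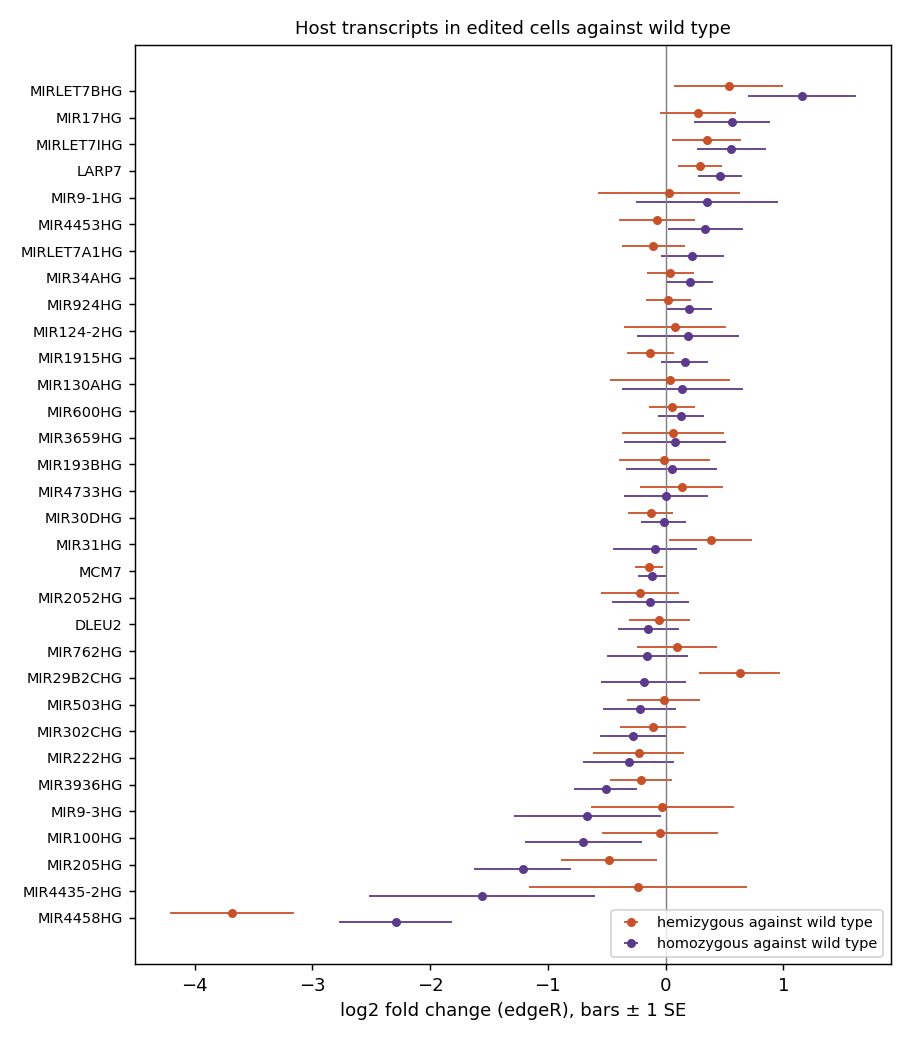
Log2 fold change (x axis) of the 32 host transcripts in hemizygous and homozygous cells against wild type, with bars of 1 SE from edgeR, hosts ordered by the homozygous value. MIR4458HG stands apart at -3.68 in hemizygous and -2.29 in homozygous cells, and the next lowest homozygous values are -1.56 for MIR4435-2HG and -1.21 for MIR205HG.

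Per kilobase of annotated exon, the hosts spanned a wide range of levels. MIR302CHG averaged 711 CPM per kb over the 6 libraries, rank 31 of 15926 genes with a length. MCM7 followed with 84.2 and LARP7 with 17.5 CPM per kb. The ranges of these 3 over the libraries did not overlap with each other or with the next host, MIR600HG at 8.50 CPM per kb. Below them came MIR17HG with 7.02 and MIRLET7A1HG with 6.87 CPM per kb. The lengths are those of GENCODE release 29, while the annotation used for counting is not given. They are 743 bases for MIR302CHG, in part shared with LARP7 exons, and 1435 for MIRLET7A1HG, without its hairpins. How far these lengths set the places of both hosts was not tested. In the order of levels 26 of the 30 adjacent pairs overlapped, so the order from MIR600HG down to MIR9-3HG is not resolved between neighbours. DLEU2 averaged 0.785 and MIR4458HG 0.353 CPM per kb, and MIR29B2CHG was lowest at 0.0370 CPM per kb, below every library of MIR9-3HG.

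By genotype, MIR302CHG had 718 ± 66.0 CPM per kb in hemizygous, 639 ± 271 in homozygous and 774 ± 94.3 in wild-type cells (SD, n = 2 each). It made up 33.2% to 48.4% of the summed CPM of all hosts in a library, and the sum itself was 999.8 to 1328 CPM. On the scale of CPM, 4 hosts averaged under 1, 19 between 1 and 10, and 9 at 10 or more, of which MIR302CHG and MCM7 exceeded 100. The low-count limit of the table was passed in all 6 libraries by 29 hosts, in 4 by MIR29B2CHG and MIR3659HG, and in 3 by MIR4458HG.

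**Figure D4:**
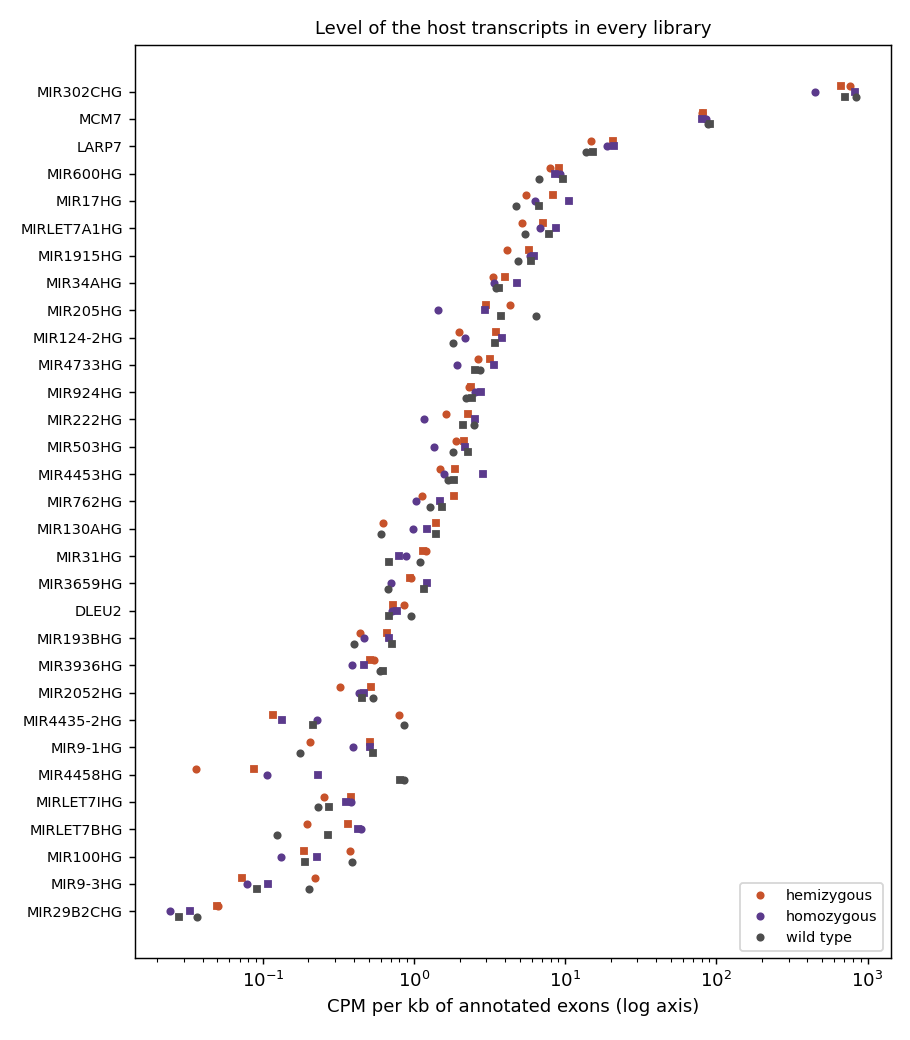
Level of the 31 hosts with an annotated length, in CPM per kilobase of exon (x axis, log scale), 1 point per library and colours for hemizygous, homozygous and wild-type cells; circles are replicate 1 and squares replicate 2. MIR302CHG stands highest, at an average of 711 CPM per kb, and for MIR4458HG the edited points spread below the wild-type points.

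Host transcripts varied more between the samples of 1 genotype than genes did on the whole, as a description. The median absolute log2 difference between replicate 1 and 2 was 0.47 in hemizygous, 0.42 in homozygous and 0.33 in wild-type cells for the hosts, and 0.29, 0.21 and 0.25 in the same order for all genes. Past 2-fold were 6, 3 and 6 hosts, or 18.8%, 9.38% and 18.8%, where 5.76%, 1.96% and 5.09% of all genes were. Of the 32 hosts, 25 averaged below the median level of all genes, 19.1 CPM, and the part of low counts in this spread was not tested.

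The largest such difference was in MIR4435-2HG, a long noncoding RNA on chromosome 2. Its exons share 727 bases, or 5.6%, with BCL2L11 exons of the other strand. It had 10.5 and 1.52 CPM in hemizygous, 2.996 and 1.75 CPM in homozygous and 11.2 and 2.79 CPM in wild-type cells. Replicate 1 was above replicate 2 in every genotype, by 2.75, 0.76 and 1.98 on the log2 scale. The log2 fold change against wild type was -0.23 ± 0.93 in hemizygous and -1.56 ± 0.96 in homozygous cells, the second larger than the homozygous spread and smaller than the other spreads. Within replicate number 1 the homozygous difference was -1.88 and within number 2 it was -0.66. Its adjusted p in homozygous cells was 1.00 with edgeR and 0.0926 with DESeq2 and a replicate block. With DESeq2 and the block, LARP7 had an adjusted p of 0.0714, MIR17HG of 0.0745 and MIR4458HG of 0.00228 in homozygous cells. In MIR9-1HG the samples went the other way, with replicate 1 over replicate 2 at -1.33 in hemizygous, -0.36 in homozygous and -1.57 in wild-type cells. Replicate 1 was above replicate 2 in all genotypes for 2 hosts, MIR4435-2HG and MIR31HG, and below in all for 13. Thus 46.9% of hosts had the same sign in all 3 genotypes, against 58.2% of all genes. What the replicate numbers stand for is not given in the labels.

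**Figure D5:**
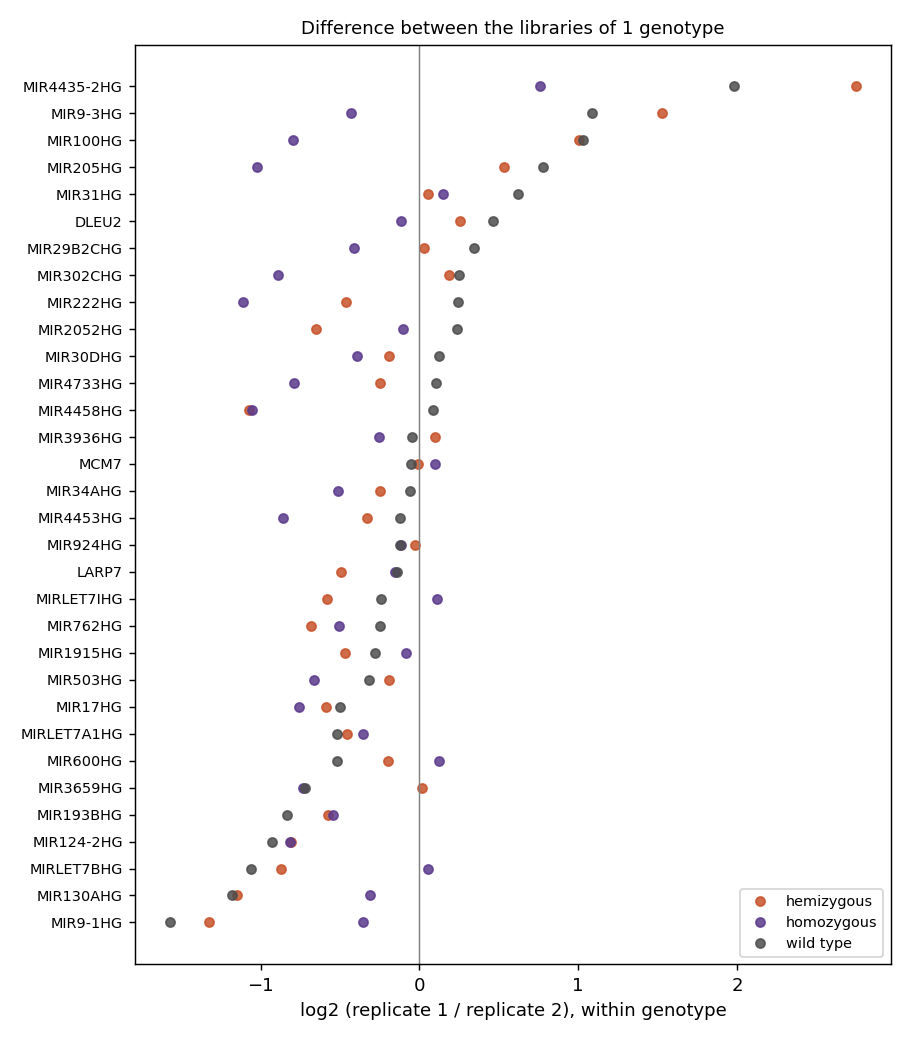
Log2 ratio of replicate 1 to replicate 2 within hemizygous, homozygous and wild-type cells (x axis) for the 32 host transcripts, ordered by the wild-type value. MIR4435-2HG lies furthest right, at 2.75 in hemizygous cells, and MIR9-1HG furthest left, at -1.57 in wild-type cells.

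Neither edgeR nor DESeq2 without a block called a gene in the lists of related genes. Of 48 other genes known to carry microRNAs in their introns, 44 were measured, and edgeR called 0 in every comparison. At p under 0.05, 0 were higher and 1 lower in hemizygous, and 0 higher and 2 lower in homozygous cells against wild type. Over all genes 0.870% had p under 0.05 in hemizygous cells, and 1.19% were higher and 1.50% lower in homozygous cells. The median log2 fold change was -0.02 and -0.06. ARRB1, which encodes beta-arrestin and carries miR-326, had 90.7 and 78.6 CPM in hemizygous and 77.1 and 74.9 CPM in homozygous cells, against 101 and 124 CPM in wild-type cells. Its log2 fold change was -0.41 ± 0.15 in hemizygous and -0.57 ± 0.16 in homozygous cells, with an edgeR adjusted p of 1.00. With a replicate block, DESeq2 gave it an adjusted p of 0.0156 in homozygous cells. SLIT3 was the highest of the list in hemizygous cells, at 0.21, and PVT1 the highest and DNM3 the lowest in homozygous cells, at 0.26 and -0.75.

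The 22 measured partners of MCM7 in the helicase and origin complexes had a median log2 fold change of 0.04 in hemizygous and -0.08 in homozygous cells, with 0 at p under 0.05. The extremes were MCM9 at 0.18 and ORC5 at -0.15 in hemizygous cells, and ORC3 at 0.12 and CDC6 at -0.25 in homozygous cells. The LARP7 and 7SK list of 10 genes holds LARP1, a related gene, besides partners of LARP7 around 7SK RNA. Its medians were 0.01 and -0.02, with none at p under 0.05. CCNT2, a cyclin of P-TEFb, was highest in both edited genotypes at 0.21 and 0.30, and LARP1 lowest at -0.08 and -0.16.

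Of 15 genes around DLEU2 at 13q14, 14 were measured, with medians of -0.01 and -0.04 and none at p under 0.05. DLEU7 was highest in hemizygous cells at 0.21, FAM124A in homozygous cells at 0.50, and CAB39L lowest in both at -0.13 and -0.32. Of 16 MYC and E2F genes, regulators of MIR17HG and MCM7, 15 were measured, with medians of -0.05 and -0.07. E2F8 was lowest in both, at -0.21 ± 0.17 in hemizygous and -0.53 ± 0.17 in homozygous cells (edgeR p 0.0168, adjusted p 1.00), and MXD1 highest at 0.16 and 0.43. All 16 genes of microRNA processing were measured, with medians of 0.04 and -0.01. AGO1 was highest in hemizygous cells at 0.29 and LIN28A in homozygous cells at 0.26. DICER1, the edited gene, was lowest in both at -0.46 ± 0.19 and -0.26 ± 0.19. It was the only gene of this list at p under 0.05 in hemizygous cells (edgeR p 0.0456, adjusted p 1.00), with both hemizygous libraries below both wild-type libraries, and in homozygous cells 0 were.

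In homozygous against hemizygous cells edgeR called none of these lists' genes. The medians were -0.08 for the intronic hosts, -0.11 for the MCM7 partners, -0.00 for the LARP7 partners, -0.08 for the 13q14 genes, -0.03 for the MYC and E2F genes and -0.01 for microRNA processing. The highest and lowest members were PVT1 and DNM3, CDT1 and CDC6, HEXIM2 and CCNT1, FAM124A and KPNA3, MXD1 and E2F8, and DICER1 and LIN28B in turn. Their values lay between -0.82 and 0.35 on the log2 scale.

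The genes most like 5 of the hosts across the 6 libraries were found by Pearson's r of log2 CPM among 15129 genes, as a description. For MIR4458HG they were LTBP3 (r = 0.986), BAIAP2L1 (r = 0.983) and GHDC (r = 0.975). BAIAP2L1 had 56.2 and 56.8 CPM in hemizygous, 58.3 and 59.7 CPM in homozygous and 65.4 and 64.5 CPM in wild-type cells. It had the same order of genotypes as MIR4458HG over a much smaller range. For MIR17HG they were PRDX6-AS1, SULT4A1 and RBM6 (r of 0.996, 0.995 and 0.995), and for LARP7 ACTL6B, KANK3 and CCDC74B (r of 0.998, 0.993 and 0.992). For MCM7 they were DNAAF5, BALR6 and ZBED4 (r of 0.992, 0.989 and 0.989), and for DLEU2 TMEM171, PCDHAC1 and OMA1 (r of 0.997, 0.993 and 0.990). The 6 points include same-numbered libraries that deviated together, and no value of r here is a test.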

How the data were processed

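RNA came from H1 cells with 1 µg of total RNA per library and an Illumina TruSeq v2 kit, per the labels' protocols. Reads were trimmed with cutadapt and aligned to hg38 by HISAT2, as the submitters' processing notes have it. Which program counted them, on which annotation, is not given in the sources used here. A table deposited by the authors holds whole-number counts per gene with no normalization. All 16199 genes have over 0.5 CPM in at least 3 libraries.

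Genes were tested with edgeR 4.0.16 in R 4.3.3 (TMM, quasi-likelihood test, all 6 libraries, 3 residual degrees of freedom), with Benjamini-Hochberg adjustment over all genes and a threshold of 0.05. The standard error is the fold change over the root of F. The filter of filterByExpr removed 0 genes, so the alternative without a filter was the same fit. CPM used the TMM library sizes. The script was tested on simulated data. DESeq2 1.42.0 and limma-voom (limma 3.58.1) were alternatives, as were 2 other scalings, 2 other low-count filters, a replicate block, leaving out each library, and fitting only the 4 libraries compared. Summaries and figures were made in Python 3.11.15 (pandas 2.3.3, matplotlib 3.10.9).

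Positions, exon lengths and hairpins came from GENCODE release 29 (GRCh38) and sequences from RefSeq (GRCh38.p14). Of the gene names 15813 matched by symbol, 50 by ID and 63 by that release's symbol, and 273 did not match. No library was a copy of another, with a chi-square between libraries per degree of freedom of 11.5 to 97.4. Counts without molecular identifiers give a lower limit on the error.

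The genes named were every host, DICER1, DROSHA and DGCR8, and the highest and lowest member of each list in each comparison. Also named were the measured genes next in start coordinate on either side of MIR4458HG, MIR17HG, LARP7, MCM7 and DLEU2. For these 5 hosts the 3 genes most like them were added, from log2 CPM (prior count 2) over genes averaging at least 1 CPM. The hosts and gene lists were chosen with earlier results of these data known.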

Additional observations from a re-analysis of the deposited data

How the results depend on the processing

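Under 15 alternative settings the 96 host results gave 1428 values. Of these 1419 counted as kept: they stayed on the same side of the threshold, and no result larger than its SE changed sign. Results smaller than their SE could change sign and still count as kept, and signs changed 98 times in all. The setting without a filter repeated the main fit, as the filter removed 0 genes, so its values could only be kept. Only MIR4458HG crossed the threshold. It passed in hemizygous against wild-type cells with DESeq2 (log2 fold change -3.70) and with DESeq2 and a replicate block (-3.84), and in homozygous against wild-type cells with DESeq2 and the block (-2.41, adjusted p 0.00228). Over all settings its adjusted p ran from 2.19e-07 to 1.00 in hemizygous and from 0.00228 to 1.00 in homozygous cells. Leaving out 1 library at a time gave -4.50 to -3.22 and -2.95 to -1.83.

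The 6 reversed values came from leaving out 1 library. In homozygous against wild-type cells MIR34AHG ran from -0.0726 without homozygous sample 2 to 0.44, MIR4453HG from -0.155 without the same sample to 0.71, and MIR9-3HG from -1.09 to 0.0370 without wild-type sample 1. In homozygous against hemizygous cells MIR4435-2HG ran from -2.14 to 0.64 and MIR9-3HG from -1.25 to 0.35 without hemizygous sample 1, and MIR4453HG from -0.0812 without homozygous sample 2 to 0.78. Signs changed 98 times in 62 results, most of them smaller than their SE.

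Over all genes edgeR called 0 in each comparison. DESeq2 called 7, 10 and 10 genes in the hemizygous, the homozygous and the homozygous-to-hemizygous comparison, and 23, 121 and 24 with a replicate block. The edgeR fit with the replicate block called 1, 0 and 1. Leaving out 1 library gave 0 to 2, 0 to 1 and 0 to 3 genes. The calls were 2, 1 and 3 without hemizygous sample 1, 2, 0 and 0 without hemizygous sample 2, and 1, 1 and 0 without wild-type sample 1. The cause was not tested. At p under 0.05 unadjusted, edgeR had 141, 435 and 124 genes. With the replicate block in edgeR, MIR4458HG had an adjusted p of 0.0858 in hemizygous and 0.297 in homozygous cells. Same-numbered libraries deviated together (correlations of 0.476, 0.741 and 0.357 between genotypes), but with only 2 numbers this is a hint from the data, not a pairing in the design. MIR4458HG in the edited libraries rests on 6 to 41 counts, which limits how precisely the size of its fold change is known.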

Other observations

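The mean of both edited genotypes against wild type was a contrast chosen after seeing the data. MIR4458HG was at -2.99 ± 0.40 (SE) on the log2 scale there, rank 3 of all genes by edgeR's p, with an adjusted p of 0.911. MIR205HG was at -0.85 ± 0.34 and LARP7 at 0.38 ± 0.17, with adjusted p of 1.00 each.

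A few rows of the table carry the name of a hairpin and not of a host. MIR573 had 1.67 and 2.28 CPM in hemizygous and 1.59 and 2.41 CPM in homozygous cells, against 1.10 and 1.48 CPM in wild-type cells. MIR1270 had 0.860 and 0.968, 1.01 and 1.08, and 0.578 and 0.895 CPM in the same order. Neither passed edgeR's threshold in any comparison. They were named after their values were seen.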
